A study of Homo sapiens with 4 samples.

Results

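The 10 enzymes, helper proteins and receptors of prostaglandin and leukotriene signalling were followed across 4 arrays of HCT116, a long-established cell line from a human colorectal carcinoma. The members were all probe sets (groups of short array probes that together report 1 transcript) annotated to exactly 1 of the symbols ALOX5, ALOX5AP, LTA4H, PLA2G4A, PTGS1, PTGS2, PTGES, HPGD, PTGER2 and PTGER4. There were 22 such probe sets for the 10 genes, of 54675 on the array and 41097 with 1 gene symbol. The genes were chosen with earlier results of these arrays known, in which ALOX5 stood out between the KSR1 hairpins, so that difference is given here as a description.

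The 4 groups were HCT116 cells left untransfected, cells given a vector whose short hairpin RNA has no target (shCTRL), cells given hairpin #1 against KSR1, and cells given hairpin #2 against KSR1. KSR1 scaffolds the kinases RAF, MEK and ERK. All cells were grown in the same serum-containing medium, and per the labels the transfected ones were made by lipofection followed by puromycin selection of clones; the sources used here do not say whether an array holds 1 clone or several. Each group had 1 array, so no difference has a replicate check and no p-value is given. Between untransfected and transfected cells vector, transfection, selection, clone and array differ together and cannot be told apart. Among the transfected groups the same holds for hairpin, clone and array.

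Eicosanoids are signalling lipids made from arachidonic acid, which the cytosolic phospholipase encoded by PLA2G4A releases from membranes. Cyclooxygenases (PTGS1 and the inducible PTGS2, also called COX-1 and COX-2) turn it into prostaglandin H2, the synthase encoded by PTGES makes prostaglandin E2 from that, and the dehydrogenase encoded by HPGD inactivates prostaglandin E2, which otherwise acts on receptors such as those encoded by PTGER2 and PTGER4. In the other branch 5-lipoxygenase (ALOX5), aided by its membrane partner FLAP (ALOX5AP), makes leukotriene A4, and the hydrolase encoded by LTA4H converts this to leukotriene B4. In the colon, COX-2 and prostaglandin E2 are known for promoting tumour growth, whereas 5-lipoxygenase is best known from leukocytes.

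The members that differed most were ALOX5 and PTGES, brightest in the array of hairpin #2, and PTGS1, lowest in that of hairpin #1 on all 4 of its probe sets. Of these members, PTGES and PTGS1 are shown with the 250 bases upstream of their annotated starts, a choice made by their values. The bases are RefSeq sequences of GRCh38.p14, which covered 9 of the 10 members and not ALOX5. PTGS1 has 2 annotated starts. Each run reads 5′ to 3′ on the gene's strand, and capitals mark GGGCGG or its reverse complement CCGCCC (the GC box).
PTGES, chr9:129753043-129753292, minus strand: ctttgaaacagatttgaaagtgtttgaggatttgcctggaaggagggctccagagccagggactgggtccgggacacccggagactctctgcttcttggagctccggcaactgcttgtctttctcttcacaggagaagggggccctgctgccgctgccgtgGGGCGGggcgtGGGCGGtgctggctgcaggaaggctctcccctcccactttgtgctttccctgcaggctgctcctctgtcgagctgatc
PTGS1, chr9:122370283-122370532, plus strand: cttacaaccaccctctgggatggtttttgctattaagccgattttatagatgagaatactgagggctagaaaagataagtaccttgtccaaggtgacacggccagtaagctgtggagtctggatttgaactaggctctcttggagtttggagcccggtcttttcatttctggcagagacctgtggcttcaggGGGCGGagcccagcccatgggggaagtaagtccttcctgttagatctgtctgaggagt
PTGS1, chr9:122375052-122375301, plus strand: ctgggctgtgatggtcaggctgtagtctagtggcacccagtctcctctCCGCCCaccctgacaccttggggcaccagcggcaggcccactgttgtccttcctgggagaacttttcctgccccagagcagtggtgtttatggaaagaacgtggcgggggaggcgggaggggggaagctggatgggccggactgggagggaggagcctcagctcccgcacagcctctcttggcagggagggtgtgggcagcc
The PTGES window held 2 GC boxes, beginning 89 and 78 bases before the start, and a match to GCGNGGGCG, the core bound by EGR1, read as GCGTGGGCG. That match begins 82 bases before the start and overlaps the second GC box. Among 35116 windows of the same length, 42.6% held a GC box and 8.41% held GCGNGGGCG, on either strand. Both PTGS1 windows had 1 GC box. Neither motif was particular to the windows shown: PTGER2 had 2 GC boxes and 2 matches to GCGNGGGCG, and PTGER4 had 4 GC boxes. The core bound by RUNX factors (TGTGGT, in 11.0% of windows) and the AP-1 site (TGANTCA, in 6.57%) were in none of the windows of the 9 members with a sequence. TATAAA, present in 10.7% of windows, lay 32 bases before the start of PTGS2 and, on the opposite strand, 208 bases before the first start of PTGS1. TGACG, the core of the cyclic AMP response element, in 21.2% of windows, was found upstream of PTGS2, PTGER2 and 1 of the 2 annotated starts of HPGD. These matches describe the letters only.

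The arrays were alike in scale, with median intensities between 50.7 and 52.0. Values are deposited intensities on a linear scale, and log2 differences are of log2(intensity + 16), which understates differences of dim probe sets. A probe set was analysed further when its mean log2 value over the 4 arrays reached the median of all probe sets, 6.08; of 22 member probe sets 10 did, from 6 of the 10 genes, and values under that level are not told apart from background. KSR1, the targeted gene, read 209 and 211 in untransfected and shCTRL cells, 141 with hairpin #1 and 171 with hairpin #2 on its 1 probe set past the filter. Relative to shCTRL it was at -0.53 log2 units with hairpin #1 and -0.28 with hairpin #2. The 500 probe sets nearest in brightness had an SD of 0.27 between shCTRL and untransfected cells. The fall with hairpin #2 was thus near that spread. The 3 other KSR1 probe sets were dim. All 8 colon epithelial markers examined passed the filter, while of 12 leukocyte markers measured 1, LCP1, did. Actin probe sets gave a 3' over 5' ratio, which rises as RNA degrades. It was 2.68 in untransfected and 2.09 in shCTRL cells, 2.01 with hairpin #1 and 2.22 with hairpin #2. Untransfected cells and hairpin #1 were thus the arrays furthest apart on it.

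**Figure D1:**
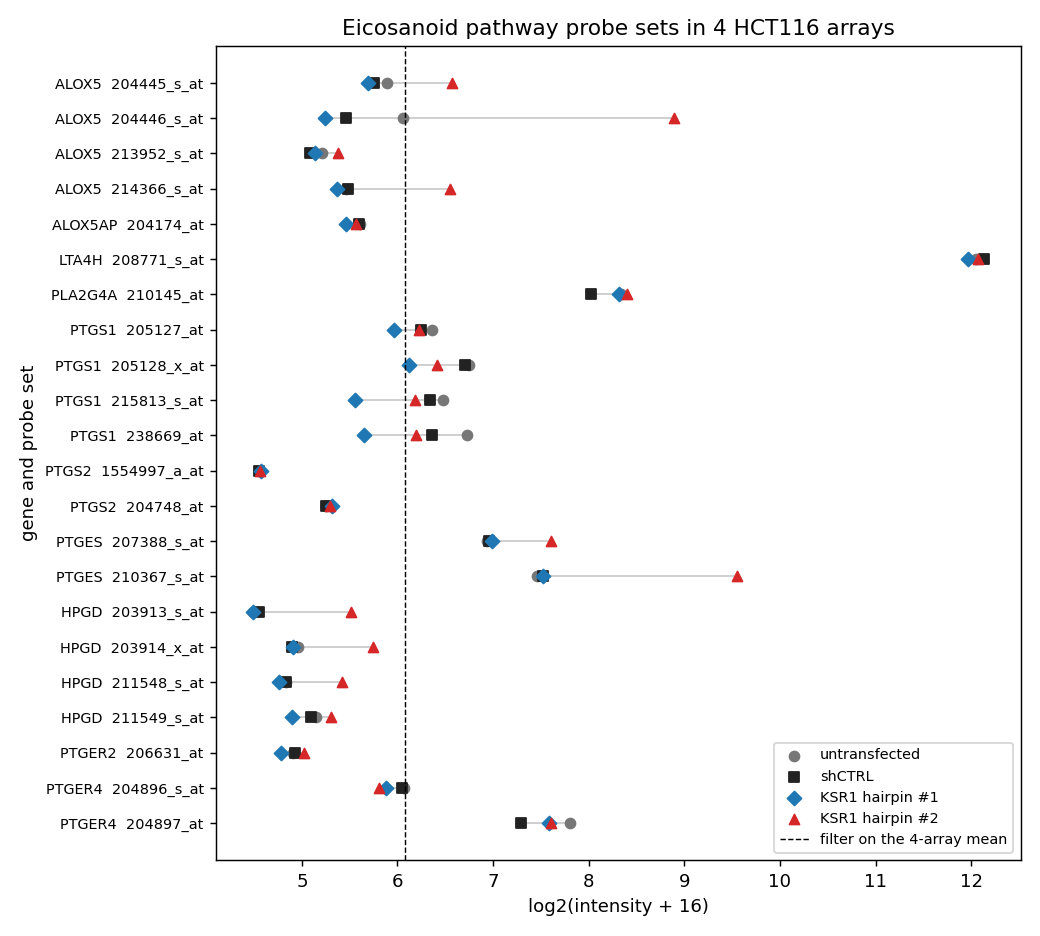
The log2(intensity + 16) of each of the 22 member probe sets (rows) in the 4 arrays (markers, 1 array per group), with grey lines spanning the range and a dashed line at the filter value of 6.08. The red triangles of hairpin #2 lie to the right of the filter line and of the other arrays for PTGES and 3 of the 4 ALOX5 probe sets, HPGD stays left of the line in every array, and the blue diamonds of hairpin #1 lie to the left for PTGS1.

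ALOX5, the first enzyme of leukotriene synthesis, was bright in the hairpin #2 array alone. Its probe set 204446_s_at read 50.4 in untransfected and 28.0 in shCTRL cells, 21.9 with hairpin #1 and 460 with hairpin #2. Only the hairpin #2 value lay above its array's median. Since the other arrays were under their medians, the difference is given as a bound against those medians: with hairpin #2 the signal was at least 9.08-fold higher than with hairpin #1, at least 8.89-fold higher than in shCTRL and at least 8.85-fold higher than in untransfected cells. The measured log2 differences were 3.65, 3.44 and 2.84 in the same order. The difference between shCTRL and untransfected cells was -0.59, and the 500 probe sets nearest in brightness had an SD of 0.22 for that pair of arrays. Without hairpin #2 the mean log2 value of this probe set was 5.58, so it passed the filter through that array.

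The other 3 ALOX5 probe sets were under the filter. 214366_s_at read 28.2, 28.9 and 25.2 in untransfected, shCTRL and hairpin #1 cells and 77.4 with hairpin #2. 204445_s_at read 43.3, 37.8, 35.6 and 79.2 in the order untransfected, shCTRL, hairpin #1, hairpin #2. On both, hairpin #2 alone lay above its array's median, at least 1.53-fold and 1.56-fold above hairpin #1. The last, 213952_s_at, read 21.0, 17.8, 19.1 and 25.5, under the median of every array. The probe sets of a gene report the same RNA and are not replicates.

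The partner proteins of ALOX5 did not share its pattern. ALOX5AP read 32.9, 32.4, 28.0 and 31.2 across untransfected, shCTRL, hairpin #1 and hairpin #2, under the median of each array. LTA4H, the enzyme after ALOX5, was bright everywhere, at 4231, 4476, 3979 and 4273 in the same order. Its range over the 4 arrays was 0.17 log2 units, less than the SD of 0.24 that probe sets of its brightness had between shCTRL and untransfected cells.

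PTGES, the inducible prostaglandin E2 synthase, was the other member more than 2-fold higher with hairpin #2. Its probe set 210367_s_at read 160 in untransfected and 168 in shCTRL cells, 168 with hairpin #1 and 732 with hairpin #2. The 3 other arrays were nearly equal, and hairpin #2 was 4.37-fold higher than shCTRL, 4.59-fold higher than untransfected cells and 4.36-fold higher than hairpin #1. The log2 difference from shCTRL was 2.03, while hairpin #1 and shCTRL differed by 0.00 and shCTRL and untransfected cells by 0.06, against an SD of 0.27 for probe sets of this brightness. All 4 values were above the array medians, and without hairpin #2 the mean log2 value was 7.50, above the filter.

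The second PTGES probe set gave the same order with a smaller step. 207388_s_at read 106, 108 and 111 in untransfected, shCTRL and hairpin #1 cells and 179 with hairpin #2, a difference of 0.65 log2 units from shCTRL. Hairpin #2 was highest on both probe sets of PTGES, as on all probe sets of 12.3% of the 5015 genes with 2. Those 5015 genes include ones with probe sets under the filter, whereas both of PTGES passed it, so the base is unlike. Both called probe sets, 204446_s_at for ALOX5 and 210367_s_at for PTGES, carry the suffix _s_at, which marks probes that can match several transcripts.

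HPGD, which breaks prostaglandin E2 down, was under the array median on all 4 probe sets in every array. 203913_s_at read 6.50, 7.52 and 6.44 in untransfected, shCTRL and hairpin #1 cells and 29.8 with hairpin #2. 203914_x_at read 15.0, 13.8, 14.1 and 37.5 in the order untransfected, shCTRL, hairpin #1, hairpin #2. 211548_s_at read 12.5, 12.6, 11.1 and 26.9, and 211549_s_at read 19.5, 18.1, 13.9 and 23.4. These values are not told apart from background, so no fold or order is read from them.

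The 2 cyclooxygenases behaved differently from each other and from PTGES. PTGS2 was dim in every array: 204748_at read 22.1, 22.2, 23.7 and 23.2 and 1554997_a_at read 7.45, 7.47, 7.88 and 7.64 over untransfected, shCTRL, hairpin #1 and hairpin #2. Their ranges were 0.06 and 0.03 log2 units. No level of PTGS2 above background could be told on these arrays, and no difference was detectable at this signal.

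PTGS1, the constitutive cyclooxygenase, was lowest with hairpin #1 on all 4 of its probe sets, which all passed the filter. 238669_at read 90.3 in untransfected and 66.4 in shCTRL cells, 34.1 with hairpin #1 and 57.4 with hairpin #2. 215813_s_at read 73.1, 64.9, 30.9 and 56.7 in that order. 205128_x_at read 91.2, 88.5, 53.7 and 69.1, and 205127_at read 66.0, 59.9, 46.3 and 58.7. On each of them the order was untransfected, shCTRL, hairpin #2, hairpin #1, from high to low. Against SDs of 0.20 to 0.23 for probe sets of this brightness, untransfected and shCTRL differed by 0.04 to 0.37 log2 units, past the SD on 238669_at alone. Between shCTRL and hairpin #2 the difference was 0.02 to 0.30, past it on 205128_x_at alone. The measured difference of hairpin #2 from hairpin #1 was 0.26 to 0.63, past it on all 4. On 238669_at, 215813_s_at and 205127_at, however, hairpin #1 lay under its array's median. There hairpin #2 is only bounded at 1.13-fold, 1.12-fold and 1.16-fold or more above it, so the size of that step is not known.

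The distance of hairpin #1 from untransfected cells ranged from -0.40 to -1.09 log2 units over the PTGS1 probe sets, and from shCTRL it ranged from -0.28 to -0.78. On 3 of the 4 probe sets hairpin #1 lay under its array's median, so the step from untransfected cells is at least 1.78-fold for 238669_at and at least 1.44-fold for 215813_s_at. Both hairpin arrays lay below both others on all 4 probe sets, by 0.02 to 0.30 log2 units; 16.9% of all probe sets past the filter had that arrangement at any size, and 1.51% of the 1393 genes with 4 probe sets had it on all. Hairpin #1 was lowest on all probe sets of 2.08% of those genes. The 1393 genes include those with probe sets under the filter, whereas all 4 of PTGS1 passed it, so these shares have an unlike base.

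The phospholipase gene and the receptors varied less, and where they varied it was mostly shCTRL that stood apart. PLA2G4A read 308, 245, 302 and 321 across untransfected, shCTRL, hairpin #1 and hairpin #2, with shCTRL lowest, 0.31 log2 units below untransfected cells beside an SD of 0.26, and the other 3 within 0.09 of each other. PTGER4, a receptor that raises cyclic AMP, read 207, 140, 176 and 178 on 204897_at, again with shCTRL lowest. Its shCTRL array was 0.51 log2 units below untransfected cells, beside an SD of 0.36, and the hairpin arrays lay between those 2. The other PTGER4 probe set was under the filter, at 51.0, 50.2, 43.0 and 40.0. PTGER2 was dim, at 14.1, 14.5, 11.5 and 16.5.

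The size rule of 1 log2 unit (2-fold) was then applied to the 10 probe sets past the filter and to all 22733 with 1 symbol that passed it. Higher with hairpin #2 than with shCTRL were 2 member probe sets (ALOX5 204446_s_at and PTGES 210367_s_at), beside 0.823% of all. The same 2 were higher than in untransfected cells, beside 1.10% of all, and higher than with hairpin #1, beside 0.849%. They were also 2 of the 92 probe sets, 0.405% of all, with hairpin #2 at least 2-fold above each of the other 3 arrays. Because the genes were chosen with these arrays known and ALOX5 passed the filter through hairpin #2, the counts are a description.

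Lower with hairpin #1 than in untransfected cells was 1 member probe set, PTGS1 238669_at, beside 0.435% of all. That call uses a hairpin #1 value under its array's median, and the bound of 1.78-fold given above does not reach the rule. In each of the other directions and pairs 0 of the 10 were called. The backgrounds there were 0.383% higher and 0.343% lower for shCTRL against untransfected cells, 0.119% higher and 0.352% lower for hairpin #1 against shCTRL, and 0.889% lower for hairpin #2 against shCTRL. They were 0.299% higher for hairpin #1 against untransfected cells, 0.946% lower for hairpin #2 against untransfected cells and 0.691% lower for hairpin #2 against hairpin #1. No member had both hairpin arrays 2-fold above both others, as 0.0308% of all did, or 2-fold below, as 0.0220% did.

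**Figure D2:**
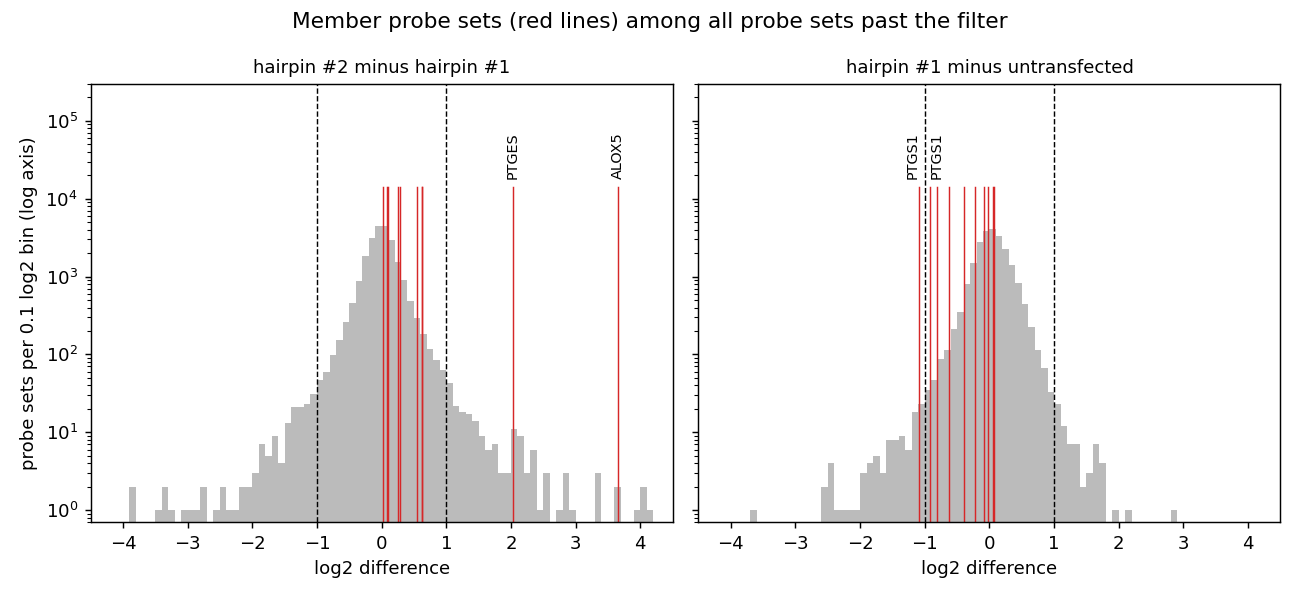
Grey bars count all 22733 probe sets past the filter by log2 difference (log axis, bins of 0.1), red lines mark the 10 member probe sets and dashed lines the 2-fold rule, for hairpin #2 minus hairpin #1 (left) and hairpin #1 minus untransfected (right). ALOX5 at 3.65 and PTGES at 2.02 lie beyond the rule on the left, and 1 PTGS1 probe set at -1.09, measured from a hairpin #1 value under the array median, lies beyond it on the right.

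A range of at least 1 log2 unit over the 4 arrays was seen in 3 of the 10 member probe sets, beside 3.55% of all, 1 each of ALOX5, PTGES and PTGS1. The ALOX5 probe set passed the filter through hairpin #2, and the PTGS1 range rests on a hairpin #1 value under its array's median. The count is therefore a description. Of the 10, hairpin #2 was the highest array on 4, beside 29.3% of all, and hairpin #1 the lowest on 6, 4 of them those of PTGS1, beside 19.8%. The median log2 difference of hairpin #2 from hairpin #1 over the 10 was 0.42, beside 0.00 over all 22733, and that of hairpin #1 from untransfected cells was -0.31, beside 0.03. PTGS1 supplies 4 of these 10 probe sets, so the medians are not those of independent genes. On most of the PTGS1 probe sets hairpin #1 lay under its array's median, so the sizes that enter these medians are uncertain.

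Probe sets outside the pathway with the most similar course over the 4 arrays were found by the distance between log2 profiles centred on their own mean. Nearest to ALOX5 204446_s_at were TXLNGY at a distance of 0.24, SYTL2 at 0.37 and KDM5D at 0.37. TXLNGY and KDM5D are genes of the Y chromosome. Nearest to PTGES 210367_s_at were KLK11 at 0.12, the cytidine deaminase gene APOBEC3C at 0.15 and the calcium-binding protein gene S100P at 0.25. Nearest to PTGS1 238669_at were the inositol transporter gene SLC5A3 at 0.13, ANKDD1A at 0.20 and the sulfotransferase gene SULT1C2 at 0.21. Likeness over 4 arrays is a description of these arrays alone.

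**Figure D3:**
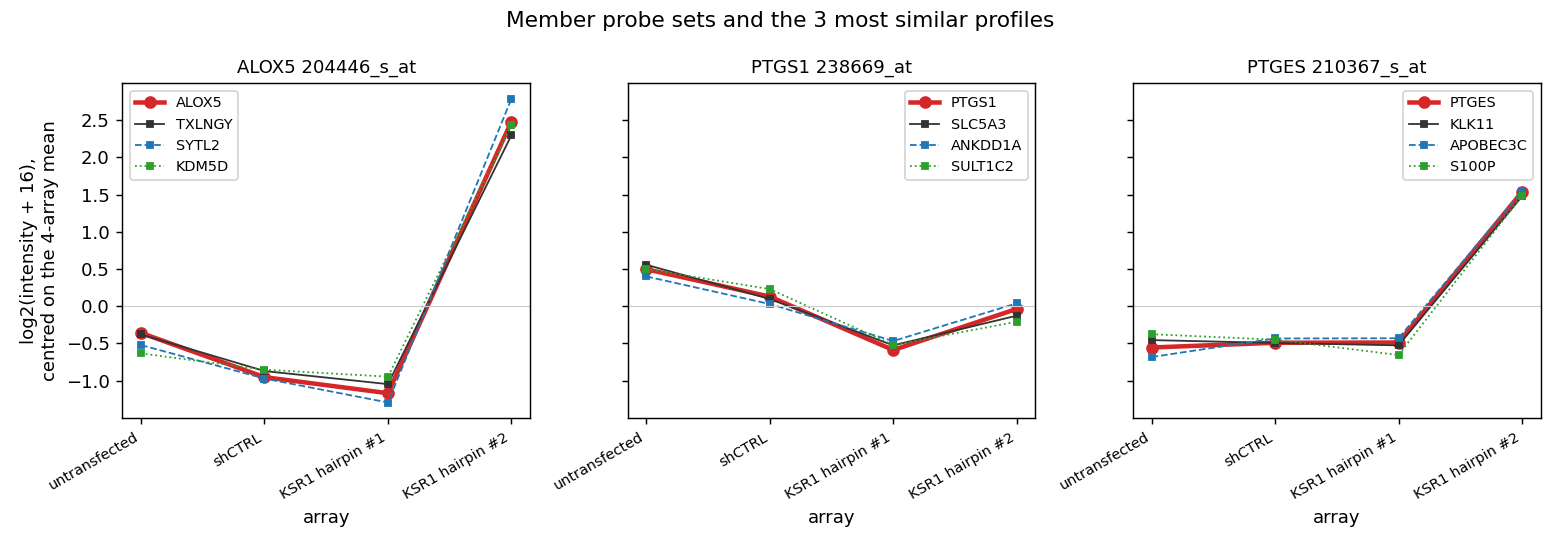
Profiles of log2(intensity + 16) centred on each probe set's mean over the 4 arrays (x axis, 1 array per group; lines join arrays only to guide the eye) for ALOX5, PTGS1 and PTGES (red) and the 3 nearest probe sets of other genes. ALOX5 and PTGES rise in the hairpin #2 array alone, and PTGS1 is lowest in that of hairpin #1.

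Since 2 of the 3 profiles nearest to ALOX5 were Y-chromosomal, the genes that the RefSeq table places on that chromosome alone were examined, a choice made after those values were seen. Of 9 such probe sets past the filter, from 9 genes, 5 were at least 2-fold higher with hairpin #2 than in each other array, beside 0.405% of all. Of these, DDX3Y, EIF1AY, KDM5D and TXLNGY passed the filter through the hairpin #2 array, as ALOX5 204446_s_at did. The count is therefore a description. The ribosomal protein gene RPS4Y1 read 1040 in untransfected and 101 in shCTRL cells, 69.7 with hairpin #1 and 11691 with hairpin #2. The helicase gene DDX3Y read 115, 7.94, 7.75 and 1845 in that order. The summed intensity of the 5 was 1325, 181, 141 and 15886. Hairpin #2 was thus the highest array for these genes, as for ALOX5 204446_s_at and PTGES 210367_s_at; whether the ALOX5 and PTGES signals share a source with these transcripts was not tested.

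Markers of other cell types were set beside the hairpin #2 values because ALOX5 is a leukocyte enzyme. The summed intensity of the 12 leukocyte markers was 366, 368, 330 and 372 across untransfected, shCTRL, hairpin #1 and hairpin #2, and the defining marker PTPRC (CD45) read between 15.5 and 17.4. The sum was thus at a similar low level in every array. LYZ read 21.8, 20.3, 16.9 and 30.9 in the same order. LYZ, CD14, CD3D and MS4A1, all under the filter, read highest with hairpin #2, and the other leukocyte markers did not. A leukocyte source of the ALOX5 signal was not tested. The 10 fibroblast markers, of which 3 passed the filter, summed to between 619 and 698. The 8 epithelial markers summed to 37179, 37576 and 35032 in untransfected, shCTRL and hairpin #1 cells and 45230 with hairpin #2. KRT20, a keratin of differentiated intestinal cells, read 166, 63.7, 52.5 and 275 in the same order, so it too was highest with hairpin #2. Also highest there were KRT8, KRT18, KRT19, CDH1 and CDX2. EPCAM, at 7855, 7917, 8119 and 7985, and VIL1, at 62.3, 62.6, 56.0 and 59.7, were not. The part of KRT20 in the ALOX5 and PTGES differences was not tested.

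The neighbouring genes with a probe set past the filter were under 2-fold in the comparisons below. MARCHF8, next to ALOX5, read 276, 250, 247 and 376 across untransfected, shCTRL, hairpin #1 and hairpin #2, 0.56 log2 units higher with hairpin #2 than in shCTRL. PRRX2 and TOR1B, which flank PTGES, were 0.35 and 0.07 higher on that comparison. CEP44, beside HPGD, was 0.16 higher. MRRF, beside PTGS1, read 622, 704, 798 and 651 in the same order as MARCHF8 and was highest, not lowest, with hairpin #1. OR13A1, beside ALOX5, was not analysed here, GLRA3, beside HPGD, was under the filter, and OR1J2, the other neighbour of PTGS1, read 59.0, 48.8, 55.2 and 48.2. These genes were looked up after the members' values were seen, on the brightest probe set of each.

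The rest of the pathway was examined through 71 further symbols, of which 64 were measured, on 126 probe sets. Of these, 65 probe sets of 35 genes passed the filter, and 1, that of PPARG, had a range of at least 1 log2 unit. PPARG encodes a nuclear receptor that prostaglandin metabolites can activate. It read 1004 in untransfected and 278 in shCTRL cells, 314 with hairpin #1 and 1188 with hairpin #2. The values formed 2 levels, untransfected and hairpin #2 high, shCTRL and hairpin #1 low, an arrangement that ALOX5 and PTGES did not have. Relative to untransfected cells PPARG was at -1.80 in shCTRL and -1.63 with hairpin #1, and relative to shCTRL it was at 2.03 with hairpin #2. In each of the 6 pairs of arrays, 0 other probe sets of the list past the filter were called.

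Under the filter there were 61 further probe sets of the list, and 1 of them, 206515_at of CYP4F3, had a range of at least 1 log2 unit; it is named after its values were seen. CYP4F3 encodes a hydroxylase that inactivates leukotriene B4. It read 29.4 in untransfected and 21.9 in shCTRL cells, 20.2 with hairpin #1 and 151 with hairpin #2. As for ALOX5, hairpin #2 alone was above its array's median, at least 2.98-fold above hairpin #1, 2.92-fold above shCTRL and 2.91-fold above untransfected cells.

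The next largest ranges among probe sets past the filter stayed under 2-fold. MGST2, a microsomal glutathione transferase that can make leukotriene C4, read 246, 350, 345 and 461 across untransfected, shCTRL, hairpin #1 and hairpin #2. MGLL, the monoacylglycerol lipase that supplies arachidonic acid, read 175, 89.4, 135 and 141 on 225102_at and 140, 82.6, 112 and 115 on 211026_s_at. As for PLA2G4A and PTGER4, shCTRL was the lowest array on both. PLAAT3, a phospholipase, read 693, 583, 494 and 887 on 209581_at, with hairpin #2 highest. Its dimmer probe set past the filter, 235110_at, read 69.6, 78.2, 52.0 and 70.2, with shCTRL highest.

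COTL1, a 5-lipoxygenase binding protein, read 81.6, 71.6, 98.0 and 130 on 1556346_at across untransfected, shCTRL, hairpin #1 and hairpin #2. Its brightest probe set, 221059_s_at, read 2635, 2247, 2752 and 2545, so the higher hairpin #2 value was not on both. CYP4F12, a fatty acid hydroxylase of the cytochrome P450 family, read 91.7, 73.6, 88.0 and 129, and ACSL4, which couples arachidonic acid to coenzyme A, read 372, 240, 282 and 250 on 202422_s_at.

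By role, the medians of these genes stayed close to 0. For hairpin #2 minus shCTRL they were -0.03 for 23 probe sets of phospholipases and acyl remodelling, 0.14 for 5 of prostanoid synthases and reductases, 0.04 for 13 of prostaglandin breakdown and transport, 0.19 for 10 of lipoxygenases and leukotriene enzymes and 0.04 for 14 of receptors, beside 0.01 over all probe sets past the filter. For hairpin #1 minus shCTRL the median over all 65 was 0.01, beside 0.02. For shCTRL minus untransfected it was -0.06, beside 0.02.

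**Figure D4:**
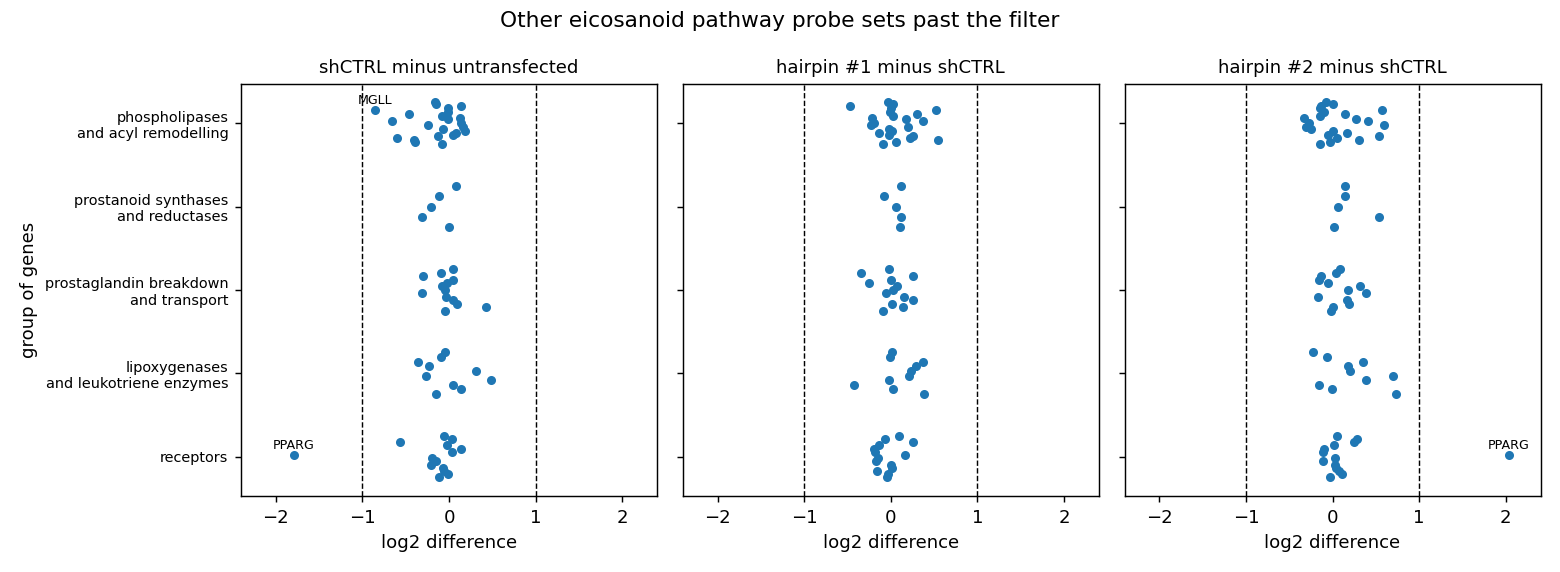
Log2 differences of the 65 other eicosanoid pathway probe sets past the filter (points, grouped by role) for shCTRL minus untransfected, hairpin #1 minus shCTRL and hairpin #2 minus shCTRL, with dashed lines at the 2-fold rule and names where a difference reaches 0.8. PPARG lies at -1.80 on the left and 2.03 on the right, and no other point crosses the lines; CYP4F3, under the filter, is not drawn.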

How the data were processed

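RNA from 4 kinds of HCT116 cells was measured on 1-colour Affymetrix arrays, 1 array per kind. The authors deposited 1 intensity per probe set and array on a linear scale. Background correction, summary method and scaling: not given in the sources used here. Values were used as deposited, as log2(intensity + 16), with Python 3.11.15, pandas 2.3.3 and numpy 2.4.6. Probe sets were named from the platform annotation: 41097 had 1 gene symbol, 1801 several and 11777 no symbol, and only the first were named. Columns of values left unused numbered 0. The members and gene lists were chosen with earlier results of these data known. Named genes were all members, the 8 listed pathway probe sets past the filter with the largest range, and the 3 profiles nearest to each member with a range of 1 log2 unit. With 1 array per group the rule was a size of 1 log2 unit without a test. It was run on simulated data with 200 probe sets changed far past the rule in both hairpin arrays. That run checks the code only and does not measure the errors of the rule on these data. Alternatives were pseudocounts of 1 and 64, quantile normalization, median centring, other filters, a 1.5-fold rule, 1 probe set per gene, probe sets without the suffixes _x_at and _s_at, and leaving out each array. The number of arrays limits the precision.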

Additional observations from a re-analysis of the deposited data

How the results depend on the processing

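No count changed under quantile normalization or median centring by over 1.5 times. Without probe sets ending in _x_at or _s_at, 0 members were called higher with hairpin #2 against shCTRL, untransfected cells or hairpin #1, since both called probe sets carry the second suffix, and with the filter at the 75th percentile 1 was called in each. Without a filter 4 were called against untransfected cells and 4 against hairpin #1, and at 1.5-fold 4 against hairpin #1. The calls added without a filter were ALOX5 214366_s_at and HPGD 203913_s_at, and the HPGD values are not told apart from background. For hairpin #1 below untransfected cells the count of 1 became 3 with a pseudocount of 1, 0 with 64, 0 at the 75th percentile, 0 with 1 probe set per gene and 4 at 1.5-fold. For hairpin #1 below shCTRL the count of 0 became 1 with a pseudocount of 1 and 3 at 1.5-fold, and for shCTRL below untransfected cells it became 1 at 1.5-fold. Leaving out the hairpin #1 array put 2 members 2-fold above both other arrays, and leaving out another array put 0 there. For the other pathway genes, the count higher with hairpin #2 became 2 against shCTRL, 1 against untransfected cells and 2 against hairpin #1 without a filter, and 4, 1 and 2 at 1.5-fold. The count lower in shCTRL than in untransfected cells became 4 at 1.5-fold, and each PPARG call became 0 without the suffixes. The log2 difference of hairpin #2 from hairpin #1 lay between 2.61 and 4.33 for ALOX5 204446_s_at and between 1.78 and 2.12 for PTGES 210367_s_at. Of 528 member differences recomputed, 52 moved by more than the spread of probe sets of their brightness, all of them with another pseudocount, and none of the differences past 2-fold turned its sign. No paired analysis was possible because each group had 1 array.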
